A study of Mus musculus with 6 samples.

Results

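Genes of the germ line and of meiosis were followed in mouse embryoid bodies, the aggregates in which embryonic stem cells differentiate. They are Sycp3, Sycp1, Ddx4, Dazl, Mael, Dmc1, Prdm1, Prdm14, Nanos3 and Kit, chosen by name from the array's annotation. Of these 10 genes, 9 had at least 1 probe set that names them alone, with 12 probe sets among the 45101 of the array. Nanos3, an RNA-binding protein needed for the survival of primordial germ cells in the mouse, had no such probe set and was not analysed here. A total of 6 members, with 8 probe sets, lay above the filter on dim signal and were tested among 13608 genes.

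The samples were embryoid bodies of the D3 stem cell line, grown without LIF in rotary culture and collected at 10 days. In 3 samples the gelatin-coated microspheres inside the bodies were loaded with retinoic acid (RA), and in the 3 control samples they carried the dye CellTracker Red. The labels do not say whether the RA microspheres also carried the dye, nor which RA dose was loaded, and all samples come from 1 cell line. They do not say that the triplicates were separate cultures, so p-values measure the spread between these arrays, which may be technical. Each array measured RNA of whole bodies, in which fewer cells of a type and less RNA per cell cannot be told apart.

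Primordial germ cells are set aside from the epiblast of the mouse embryo, where the transcriptional regulators Prdm1 (Blimp1) and Prdm14 establish them. The receptor tyrosine kinase Kit supports their survival and migration. Later germ cells switch on the RNA-binding proteins Dazl and Ddx4 (the mouse vasa homologue) and Mael, a protein of germ granules and transposon silencing. In the fetal ovary RA induces Stra8 and with it entry into meiosis, in which Sycp1 and Sycp3 build the synaptonemal complex and Dmc1 carries out strand exchange between homologous chromosomes. Several of these genes are kept silent in other cells by promoter DNA methylation and by repressor complexes. One such complex contains the factors MGA and MAX, and dimers of MAX bind the E-box CACGTG.

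The bases upstream of the start site are shown for the 4 members whose promoter held a CACGTG, because they pair the member that rose with RA, Sycp3, with 3 whose mean stayed below the signal filter. Each stretch is the 250 bases before the RefSeq start in GRCm38.p6, written 5′ to 3′ on the gene's strand, with CACGTG in capitals.
Sycp3 (chr10:88459337-88459586, plus strand): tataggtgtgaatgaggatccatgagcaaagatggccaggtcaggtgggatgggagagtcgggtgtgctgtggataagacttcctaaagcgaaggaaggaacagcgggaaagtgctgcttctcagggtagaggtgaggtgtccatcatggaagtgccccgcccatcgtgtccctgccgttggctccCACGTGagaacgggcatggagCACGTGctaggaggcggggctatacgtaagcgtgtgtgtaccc
Sycp1 (chr3:102936101-102936350, minus strand): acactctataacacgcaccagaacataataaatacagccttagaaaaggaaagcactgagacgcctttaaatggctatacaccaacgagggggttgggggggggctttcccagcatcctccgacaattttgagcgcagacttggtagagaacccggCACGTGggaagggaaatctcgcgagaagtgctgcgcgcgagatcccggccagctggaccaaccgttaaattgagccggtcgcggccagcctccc
Ddx4 (chr13:112652311-112652560, minus strand): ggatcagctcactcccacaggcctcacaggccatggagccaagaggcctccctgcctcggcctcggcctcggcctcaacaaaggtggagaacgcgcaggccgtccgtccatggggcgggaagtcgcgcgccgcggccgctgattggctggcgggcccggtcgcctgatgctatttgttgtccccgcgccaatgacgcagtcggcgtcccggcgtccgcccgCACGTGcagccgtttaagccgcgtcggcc
Mael (chr1:166238745-166238994, minus strand): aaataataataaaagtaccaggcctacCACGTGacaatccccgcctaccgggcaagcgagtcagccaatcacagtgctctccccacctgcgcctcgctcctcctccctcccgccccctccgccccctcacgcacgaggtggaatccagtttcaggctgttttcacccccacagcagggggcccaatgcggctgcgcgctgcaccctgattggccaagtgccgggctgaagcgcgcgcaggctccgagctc
CACGTG reads the same on both strands, and it was present in 6.02% of the 32851 RefSeq promoters of this length. Sycp3 held 2 copies, starting 64 and 43 bases before the start site, and 0.429% of all promoters held 2 or more. Of the 9 members with a promoter in the table, 4 held the E-box, and Sycp1 and Ddx4 had theirs 94 and 29 bases before the start. The letters GGCGGGA, or TCCCGCC on the other strand, which resemble an E2F site, were found in 3 of the 9 (Ddx4, Mael and Kit), against 9.75% of all promoters. Only these exact letters were counted, and other forms of an E2F site were not searched for in any promoter. The 2 words, E-box and E2F-like, overlapped at 0 places in the member promoters. These matches describe the sequence and say nothing about binding in these bodies.

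Values below are log2(intensity + 16) after quantile normalization between arrays, and differences are RA minus control on that scale. Sycp3 was 3.79 times higher in bodies with RA microspheres, and the other 5 tested members did not pass the threshold. The filter lay at a log2 level of 5.74, the 40th percentile of all probe sets. A gene was called at a limma p-value, adjusted over all genes by the Benjamini-Hochberg method, under 0.05. Of the 6 tested members 1 was called higher and 0 lower, against 14.3% and 15.6% of all 13608 genes (30.0% in either direction). In the fit over all probe sets, used for members below the filter, 5.87% of probe sets were called higher and 6.15% lower. At an unadjusted p under 0.05, 2 members were higher and 1 was lower, against 19.4% and 20.3% of all genes. The median difference of the 6 was 0.16, against 0.01 for all genes tested.

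**Figure D1:**
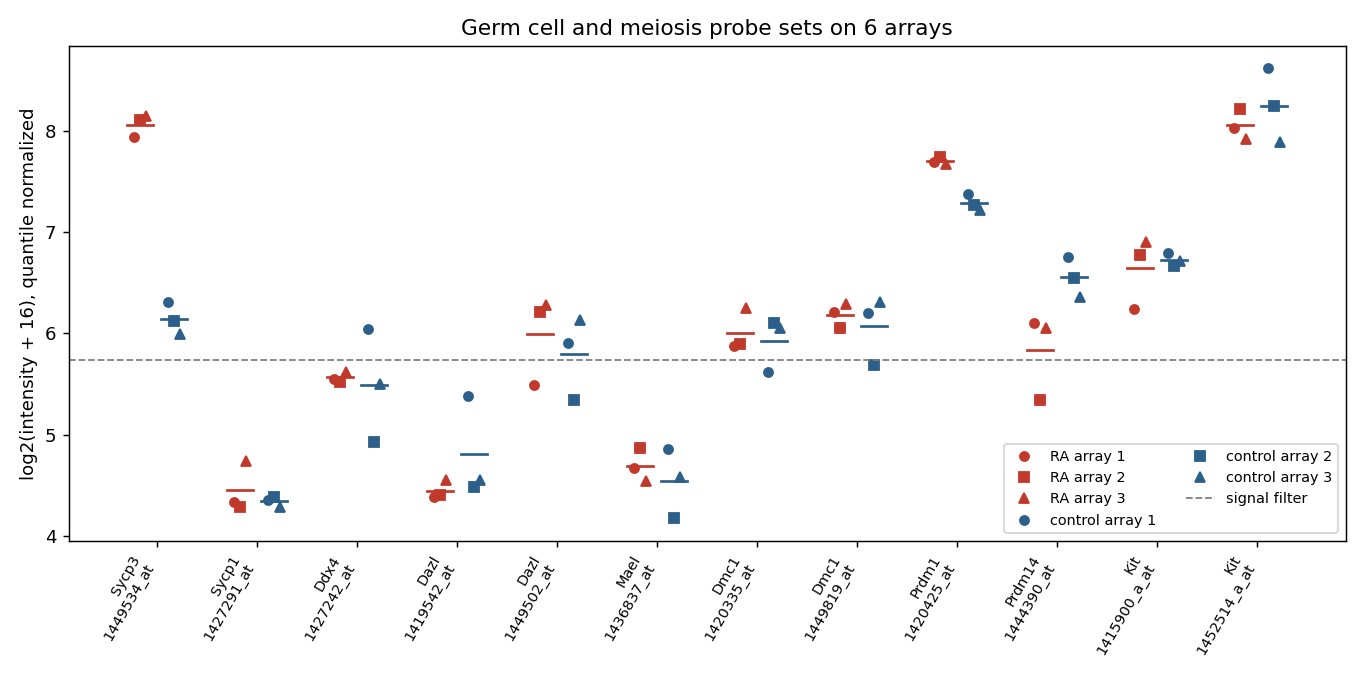
Level of each member probe set on every array, as log2(intensity + 16) after quantile normalization, with RA arrays left (red) and control arrays right (blue). Short lines are group means of 3 arrays and the dashed line is the signal filter at 5.74. The groups of Sycp3, Prdm1 and Prdm14 do not overlap, which was the case for 44.0% of all genes tested. Sycp1, Ddx4, Mael and the dimmer Dazl probe set lie mostly below the filter in both groups.

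Sycp3 encodes a structural protein of the chromosome axis and lateral element of the synaptonemal complex. Its deposited signal was 232, 294 and 297 on RA arrays 1, 2 and 3, against 59.7, 59.0 and 34.2 on control arrays 1, 2 and 3. Every RA array lay well above every control array, and the control level was close to the filter. After normalization it averaged 8.06 ± 0.11 in RA bodies and 6.14 ± 0.16 in control bodies (SD, n = 3 each). The difference of 1.92 ± 0.18 (SE) had a 95% interval of 1.52 to 2.32 and a limma adjusted p of 1.42e-05. By size of rise, Sycp3 ranked 82 of 13608 genes. Under the 16 alternative settings tried, the difference lay between 1.41 and 2.19 and was called each time. RNA of RA array 1 had a Gapdh 3-prime to 5-prime ratio of 34.0, against 3.06 to 4.74 on the other 5 arrays. Without that array the Sycp3 difference was 2.00.

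Sycp1, the partner of Sycp3 in the synaptonemal complex, was at background level in both groups. This gene, which forms the transverse filaments, lay at 4.33, 4.29 and 4.74 in RA bodies, against 4.35, 4.39 and 4.28 in control bodies. These groups overlap, and the mean of the probe set ranked at the 2.30th percentile of all probe sets. Its difference was 0.11, with a 95% interval of -0.22 to 0.44 in the fit over all probe sets. A level this dim is open to background, so a change in Sycp1 was not detectable here rather than absent.

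Dmc1, the meiotic recombinase, was read by a pair of probe sets that both lay a little above the filter. The brighter one measured 6.22, 6.05 and 6.29 in RA bodies, against 6.20, 5.69 and 6.32 in control bodies. The groups overlap, and the difference was 0.12 with a 95% interval of -0.49 to 0.73 (limma adjusted p = 0.793). The other probe set had a difference of 0.08 in the fit over all probe sets, with an interval of -0.59 to 0.75.

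The later germ cell genes lay near or below the filter in both groups. Dazl, which controls translation in germ cells, measured 5.49, 6.21 and 6.28 in RA bodies and 5.91, 5.34 and 6.14 in control bodies with its brighter probe set. The groups overlap, and both hold 1 array below the filter. Its difference was 0.20, with an interval of -0.55 to 0.96 (limma adjusted p = 0.710). The dimmer Dazl probe set averaged 4.45 ± 0.09 in RA bodies and 4.81 ± 0.50 in control bodies (SD, n = 3 each), below the filter on all 6 arrays. There, the difference was -0.36, with an interval of -0.89 to 0.17, so the Dazl probe sets differ in sign and neither passed.

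Ddx4, an RNA helicase that defines the germ lineage, measured 5.55, 5.52 and 5.62 in RA bodies, against 6.04, 4.93 and 5.50 in control bodies. The RA values lie inside the wider control range, and 1 control array exceeded the filter. Its difference was 0.08, with an interval of -0.69 to 0.84 in the fit over all probe sets. Mael measured 4.67, 4.86 and 4.54 in RA bodies, against 4.86, 4.18 and 4.58 in control bodies. All 6 values were below the filter, and the interval of the difference ran from -0.29 to 0.60.

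**Figure D2:**
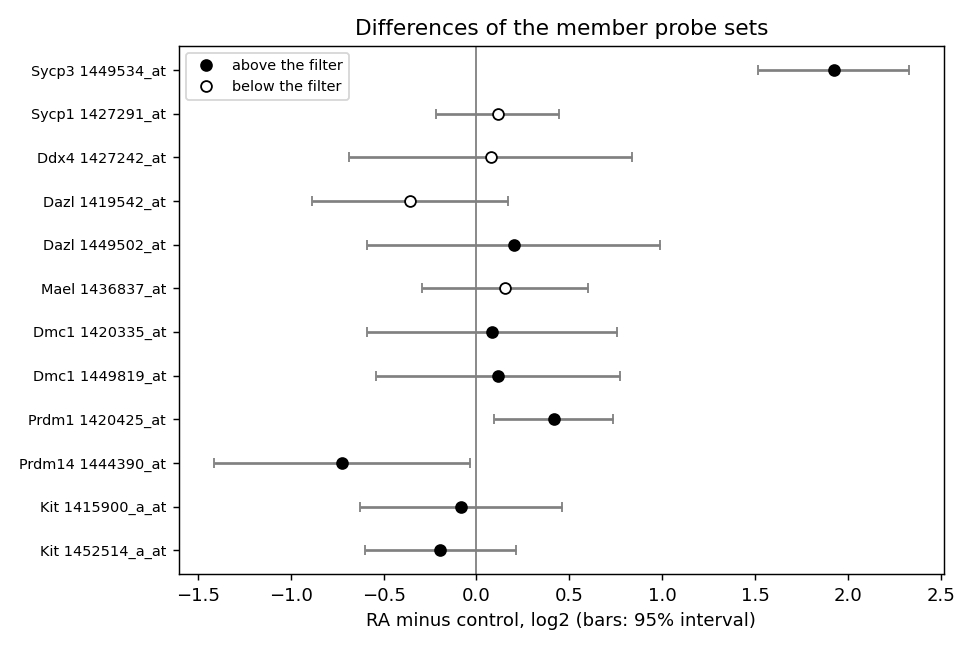
RA minus control difference of each of the 12 member probe sets on the log2 scale, with 95% intervals from the limma fit over all 45037 probe sets that are not array controls. Filled points lie above the signal filter and open points below it. Sycp3 lies at 1.92, and the intervals of the 9 probe sets other than those of Sycp3, Prdm1 and Prdm14 include 0.

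The pair of germ cell specification factors differed in opposite directions, by amounts that did not pass. Prdm1, a zinc finger repressor of the somatic program in germ cell precursors, measured 7.70, 7.74 and 7.68 in RA bodies, against 7.38, 7.27 and 7.22 in control bodies. The groups do not overlap, which was the case for 44.0% of all genes tested. The difference of 0.42 ± 0.15 (SE), or 1.33 times, had an interval of 0.09 to 0.74 and a limma adjusted p of 0.0563. Over the alternative settings the adjusted p ran from 0.0299 to 0.140, and Prdm1 passed in 3 of 16. Prdm1 is also known from visceral and anterior endoderm, and the endoderm markers differed between these groups as described below.

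Prdm14, a regulator of naive pluripotency and germ cell fate, measured 6.10, 5.34 and 6.05 in RA bodies, against 6.76, 6.55 and 6.36 in control bodies. The control arrays were all above the RA arrays, which was the case for 22.2% of all genes tested. For Prdm14, 1 RA array fell below the filter. The difference of -0.72 ± 0.29 (SE) had an interval of -1.36 to -0.08 and a limma adjusted p of 0.0856. Under no alternative did it pass, with adjusted p between 0.0630 and 0.320.

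Kit was well above the filter and did not differ beyond the spread of the arrays. The brighter of its probe sets measured 8.03, 8.22 and 7.92 in RA bodies, against 8.62, 8.25 and 7.89 in control bodies. The groups overlap, and the difference was -0.19 with an interval of -0.59 to 0.20 (limma adjusted p = 0.463). The other probe set measured 6.25, 6.77 and 6.91 in RA bodies, against 6.79, 6.67 and 6.72 in control bodies, with an interval of -0.63 to 0.46. Kitl, the Kit ligand, is named after its values were seen. It was lower in RA bodies, with a difference of -0.46 ± 0.10 (limma adjusted p = 0.00531). It averaged 8.85 ± 0.11 in RA bodies and 9.31 ± 0.07 in control bodies (SD, n = 3 each).

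The genes next to Sycp3 on chromosome 10 were taken by position, as the nearest tested pair on each side in GRCm38.p6. Dram1, a p53-induced gene of autophagy, was 2.48 times higher in RA bodies (difference 1.31 ± 0.18, limma adjusted p = 0.000248). Gnptab, an enzyme subunit that tags lysosomal proteins, was 1.97 times higher (0.98 ± 0.22, limma adjusted p = 0.00501), although 1 of its 3 probe sets passed in the fit over all probe sets, which is also the source of such counts below. Both lie on one side of Sycp3. On the other side Chpt1, which makes phosphatidylcholine and whose annotated span overlaps that of Sycp3, had a difference of 0.28 ± 0.20 (limma adjusted p = 0.342), with its RA arrays above its control arrays. Its 4 probe sets ran from -0.64 to 0.28 and none was called. The muscle gene Mybpc1, the next gene on that side, had a difference of 0.18 ± 0.30 (limma adjusted p = 0.708). Thus 2 of the 4 neighbours were called higher, against 14.3% of all genes.

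**Figure D3:**
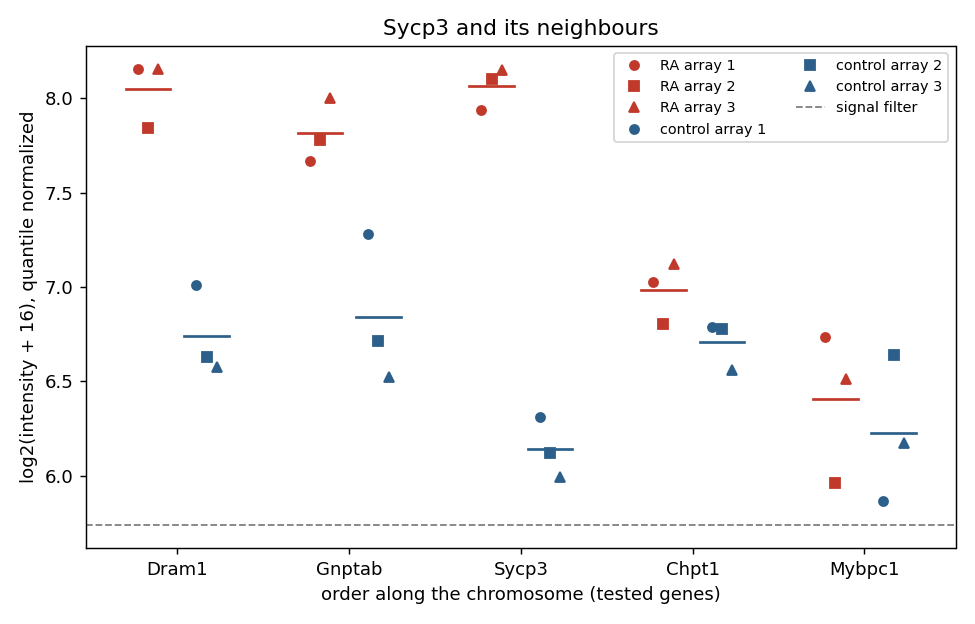
Level of Sycp3 and of the nearest tested genes on each side, in chromosome order, as log2(intensity + 16) after quantile normalization. RA arrays are red and left, control arrays are blue and right, lines are group means, and the dashed line is the filter. The RA arrays of Dram1, Gnptab, Sycp3 and Chpt1 all lie above their control arrays, which was the case for 21.8% of all genes tested. Chpt1 was not called, and Mybpc1 overlaps.

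Among other genes of meiosis, Stra8 and Rec8 were lower in RA bodies, and Syce2 and Trip13 were higher. Stra8, the RA-induced gatekeeper of meiosis in the mouse, measured 5.33, 4.90 and 4.91 in RA bodies, against 6.71, 7.49 and 7.37 in control bodies. All RA values lay below the filter and all control values above it. Stra8 was at least 2.74-fold lower, taking the filter level as the floor on the log2(intensity + 16) scale (limma adjusted p = 0.000267). The fitted difference of -2.14 ± 0.30 (SE) was -2.88 with a pseudocount of 1 and -1.27 with one of 64. Rec8, the meiotic cohesin subunit that RA also induces in germ cells of the mouse, measured 5.30, 4.55 and 4.83 in RA bodies, against 7.01, 6.71 and 7.09 in control bodies. It was at least 2.29-fold lower against the same floor (limma adjusted p = 0.000457), and its fitted difference was -2.94 and -1.13 with these pseudocounts. The RA levels of both genes are open to background, and both genes passed the filter only through their control values.

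Syce2, a central element protein of the synaptonemal complex, averaged 10.57 ± 0.03 in RA bodies and 9.76 ± 0.15 in control bodies (SD, n = 3 each). It was 1.75 times higher (0.81 ± 0.09, limma adjusted p = 5.37e-05). Trip13, an ATPase that remodels axis proteins in meiosis and also acts in the mitotic checkpoint, was 1.63 times higher (0.70 ± 0.09, limma adjusted p = 9.38e-05), with 2 of its 3 probe sets called. Ccnb1ip1 (1.04 ± 0.21, limma adjusted p = 0.00319) and Tex15 (0.57 ± 0.17, limma adjusted p = 0.0251) rose as well. Both are named after their values were seen. The 1 probe set of Tex15 was not called in the fit over all probe sets. Of 39 listed meiosis genes 19 were tested, of which 4 rose and 2 fell, with a median of 0.02. The share called, 6 of 19, was near the 30.0% of all genes. The count of falls was 1 without control array 1 or 3, where Rec8 was below the filter. A further 14 had probe sets below the filter, among them Sycp2, Hormad1, Msh4 and Prdm9. None of these 14 was called by limma in the fit over all probe sets, where 12.0% of probe sets were called, and 1 had an unadjusted p under 0.05.

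In the list of germ granule and piRNA pathway genes, Dazap2 was the member called. Of 32 listed genes 20 were tested, of which 0 rose and 1 fell by the limma test, against 14.3% and 15.6% of all genes, and the difference from those shares was not tested. At an unadjusted p under 0.05, 1 was higher and 1 lower. The median difference was 0.24, against 0.01 for all genes. The gene that fell, Dazap2, binds Dazl but is broadly expressed, and it averaged 9.54 ± 0.01 in RA bodies and 10.16 ± 0.08 in control bodies (SD, n = 3 each). Its call was lost without scaling of the arrays (-0.26). Dazap1, another Dazl-binding protein, had a difference of 0.48 ± 0.18 (limma adjusted p = 0.0676) and passed without RA array 1 (0.65). Tex19.2 and Exd1, a piRNA pathway protein, had differences of 0.53 and 0.50 (limma adjusted p = 0.137 and 0.173). The 8 listed genes below the filter, among them Tdrd1, Tdrd9, Piwil1 and Piwil4, had differences between -0.58 and 0.62, none of them called and none with an unadjusted p under 0.05.

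Genes of germ cell specification and survival differed in both directions. Lin28a, an RNA-binding repressor of let-7, averaged 10.98 ± 0.17 in RA bodies and 8.11 ± 0.30 in control bodies, and Sall4 averaged 11.26 ± 0.08 in RA bodies and 9.43 ± 0.15 in control bodies (SD, n = 3 each). Pou5f1 (Oct4) was 5.38 times higher. Cxcl12, the chemokine that guides migrating germ cells, was 2.74 times lower (-1.45 ± 0.14, limma adjusted p = 1.50e-05), and a dim probe set of its 3 ran the other way, at 0.25. Of 26 listed genes 22 were tested, of which 8 rose and 4 fell (2 without scaling), against 14.3% and 15.6% of all genes, with a median of 0.22. The other rises, named after their values were seen, were Sox2, Bmp2, Cxcr4, Nanog and Klf4. The other falls, also named after their values were seen, were Bmp4 (-1.32 ± 0.22), Ifitm3 (-0.52 ± 0.09) and Kitl. These counts describe the list, and whether they reflect germ cells was not tested. Of 3 further genes below the filter, 1 was called higher in the fit over all probe sets, Fgf8 (1.55 ± 0.39, limma adjusted p = 0.0266), and 2 had an unadjusted p under 0.05. Tfap2c, a factor required for germ cell specification, and Dppa3 (Stella), a marker of established germ cells, are named after their values were seen. Tfap2c had a difference of 0.26 ± 0.13 (limma adjusted p = 0.168), and Dppa3 one of -0.12 ± 0.16 (limma adjusted p = 0.597).

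Of the repressors that keep germline genes silent in other cells, 6 of 18 tested genes rose and 1 fell (2 without RA array 3), against 14.3% and 15.6% of all genes, with a median of 0.06. Dnmt3b, a de novo DNA methyltransferase, averaged 12.72 ± 0.12 in RA bodies and 8.83 ± 0.29 in control bodies (SD, n = 3 each). It is also counted among the epiblast markers below. Pcgf6, a subunit of the Polycomb complex that contains MGA and MAX, was 2.33 times higher (1.22 ± 0.12, limma adjusted p = 2.01e-05), with 1 of its 3 probe sets called. Uhrf1, which brings maintenance methylation to replicated DNA, was 1.40 times higher, with 1 of its 2 probe sets called. The brightest probe set of Dnmt3a was lower (-1.21 ± 0.12), with 3 of its 5 probe sets called lower, 0 higher and a range of -1.21 to 0.04. The gene's call was lost without any single control array, when another of its probe sets was the brightest. Mga (0.55 ± 0.17, limma adjusted p = 0.0332) and E2f6 (0.01 ± 0.11, limma adjusted p = 0.948) are named after their values were seen, as the repressors of the E-box and E2F motifs above.

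**Figure D4:**
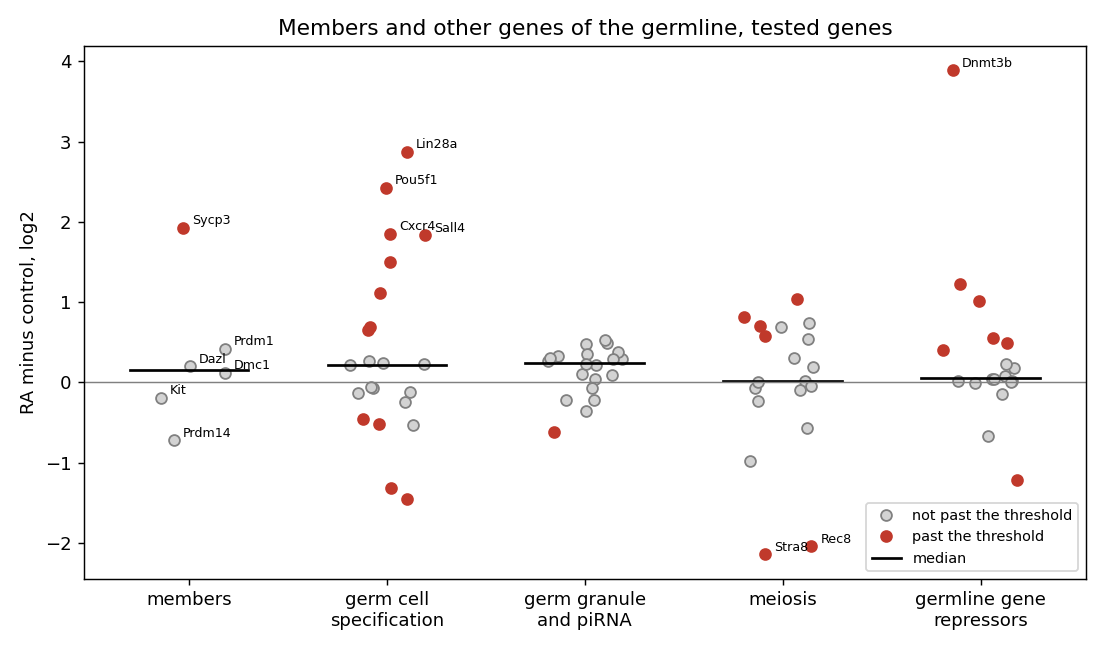
RA minus control difference on the log2 scale for each tested gene among the members and in 4 lists of germline genes, 1 point per gene with random sideways spread. Red points passed an adjusted p of 0.05, grey points did not, and black lines are medians. Sycp3 is the member in red, while Stra8 and Rec8 lie lowest among the meiosis genes.

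Markers of other cells that share these genes differed between the groups, and their part in the member values was not tested. Among all genes 14.3% were called higher and 15.6% lower, and the differences of the marker counts from these shares were not tested. All 8 epiblast markers were called higher. Of these, Foxd3 and Zic2 had control means below the filter and passed it only through their RA values. The summed level of the 8 was 13.24 to 13.39 in RA bodies, against 10.14 to 10.33 in control bodies, on the log2 scale. Dnmt3b, also counted among the repressors above, was the brightest of them in both groups. Fgf5, a growth factor of the epiblast, was 14.1 times higher. Markers of the naive state, in which Prdm14 is active, had 1 of 9 higher and 5 lower, with summed levels of 10.40 to 10.41 in RA bodies and 10.79 to 11.02 in control bodies. Without scaling, or without RA array 2 or 3 or control array 1 or 2, 2 or 3 of them were lower. Klf2 and Nr0b1 led the falls, at -1.17 ± 0.18 and -1.43 ± 0.31. The arrays of Nr5a2 and Zfp42, also called lower, overlap between the groups. This list does not hold Nanog and Klf4, which rose among the specification genes above.

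Blood progenitors also carry Kit, and 1 of 11 blood markers rose while 5 fell, against 14.3% and 15.6% of all genes. The blood markers had summed levels of 9.76 to 9.92 in RA bodies and 10.20 to 10.39 in control bodies. Without scaling 2 blood markers were lower, and 3 were without RA array 2 or 3 or any single control array. Cd34, whose RA values all lay below the filter, was at least 3.43-fold lower against that floor, and Myb was 2.20 times higher. Among the other falls, Ptprc also had all its RA values below the filter. Of 11 mast cell and melanoblast markers 9 lay below the filter, among them Cpa3, Dct and Tyrp1, and Tyr, whose control mean lay below the filter, had a narrow call (0.93 ± 0.32, limma adjusted p = 0.0492) that was lost in most alternatives. Of 12 tested endoderm markers 7 rose and 4 fell, against 14.3% and 15.6% of all genes, with a median of 1.87. Sox17 was 4.34 times higher, with 1 of its 2 probe sets called, and Afp 6.45 times lower, with 3 of its 5 called. Among the rises, Cer1 and Amn had control means below the filter. The summed level of the endoderm markers was 13.48 to 13.62 in RA bodies and 14.52 to 14.67 in control bodies. It is weighted to Afp and Ttr, the brightest of them, which both fell. Of 6 tested markers of gonad support cells 0 rose and 1 fell by the limma test, Wt1 (-1.34 ± 0.24), against 14.3% and 15.6% of all genes. At an unadjusted p under 0.05, 0 were higher and 1 was lower, against 19.4% and 20.3% of all genes. Inha had a difference of -0.51 ± 0.27, and the means of Amh, Nr5a1 and Fshr lay below the filter. The other tested markers, Sox9, Foxl2, Dhh and Star, lay above the filter and were not called.

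**Figure D5:**
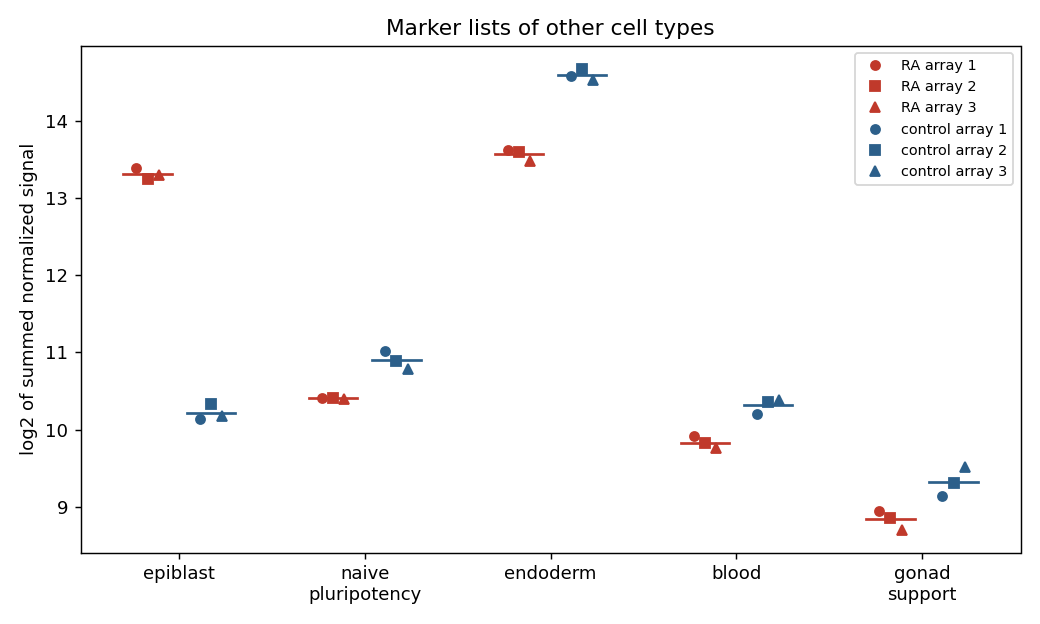
Summed normalized signal of marker lists on each array, as log2 of the sum over tested genes, with RA arrays left (red) and control arrays right (blue) and lines at group means. The summed level of epiblast markers was higher in RA bodies, and those of naive, endoderm, blood and gonad support markers were lower. The endoderm sum is weighted to Afp and Ttr, which fell, while 7 of the 12 tested endoderm markers rose.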

How the data were processed

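Per the labels, the authors labelled total RNA as biotin cRNA, hybridized 1 Affymetrix array per sample and processed it with the GCOS software at default settings. The deposited values are a linear intensity per probe set, and the trimmed mean (2% off each end) ranged from 108 to 191 between arrays. No version, signal parameters, detection calls or genome build are given in the sources used here.

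After 64 control probe sets were left out, log2(intensity + 16) was quantile normalized. The pseudocount of 16 understates folds of dim genes. Probe sets above the 40th percentile of mean level (27022 of 45037) were kept. Each gene was taken from its brightest kept probe set with 1 symbol. Of all probe sets 34945 had 1 symbol, 932 several and 9160 none. The test was limma's (version 3.58.1, R 4.3.3; lmFit, then eBayes with a trend; two-sided), with Benjamini-Hochberg adjustment over all 13608 genes. Members below the filter were read from the same fit over all probe sets. The procedure was tested on simulated data.

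The members, the lists and the naming rule were chosen with earlier results of these data known. The rule names every member, up to 4 genes with the smallest p from each pathway list (at most 3 of one direction) and up to 2 from each marker list. Neighbours were added by position. Same-numbered arrays did not deviate together (correlations of -0.09, -0.01 and -0.03), and the samples were treated as unpaired. With 3 arrays per group these values cannot exclude a pairing by number. Alternatives changed the scaling, pseudocount, filter, probe set choice, variance model, block and arrays used. The number of arrays limits the precision. Promoters come from RefSeq, GRCm38.p6.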

Additional observations from a re-analysis of the deposited data

How the results depend on the processing

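The rise of Sycp3 kept its direction and its call under all 16 alternatives. Without scaling, 651 genes were lower in place of 2127 and 72.9% of calls were higher in place of 47.8%, and the median of all genes moved to 0.26, against 0.01. The number of members called higher was 2 with a filter at the 60th percentile, with the mean of kept probe sets and with eBayes without a trend, since Prdm1 then passed. With the filter at the 60th percentile 0 meiosis genes were called lower, since Stra8 and Rec8 were then not tested. With the replicate block, 1775 genes were higher and 1949 lower, members called were 1 higher and 0 lower, and no member's call changed. The block left 3 blood and 3 naive markers lower, in place of 5 each, and changed no other call among named genes except that of Tyr. Leaving out 1 array at a time gave 1475 to 1837 genes higher and 1681 to 1951 lower, with 1 member higher and 0 lower each time.

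Signs turned for values that were near 0 and not called. Kit was 0.029 without scaling. Its dimmer probe set was 0.13 without scaling, 0.11 without RA array 1 and control array 3, and -0.22 to 0.12 when 1 array was left out. With 1 array left out, Sycp1 ran from -0.030 to 0.19, Dmc1 from -0.073 to 0.25, its dimmer probe set from -0.071 to 0.17, Dazl from -0.027 to 0.45, Ddx4 from -0.205 to 0.35, Mael from -0.028 to 0.32 and Mybpc1 from -0.00501 to 0.40. Mybpc1 was -0.018 without RA array 1 and control array 3. With the mean of kept probe sets, Mitf was 0.000759 and Chpt1 -0.12. The called fall of Dnmt3a ran from -1.26 to 0.21 with 1 array left out. It turned without control array 3 and was lost without control array 1 or 2 (-0.00176 and -0.085), where another of its probe sets was the brightest. For members near the filter the dim signal limits what could be seen.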
